A study of Mus musculus with 34 samples.

Results

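Of the 9973 BATF peaks in the table of the Foxp3 R397W experiment, 1201 shared no base pair with any of the 16109 BATF peaks in the first table, made for regulatory T (Treg) and conventional CD4 T (Tconv) cells alone. These 1201 sites, called members here, were chosen by position only, from 41612 peaks in 4 tables. Apart from 1 site of 758 bp, each was 400 bp long. The source of every sort was the spleen and lymph nodes of mice on the C57BL6/J strain. R397W Treg cells were CD4+hCD2+GFP- cells of mice with the genotype Foxp3R397W-IRES-hCD2/Foxp3-IRES-GFP, and control Treg cells were the same sort from mice with Foxp3WT-IRES-hCD2/Foxp3-IRES-GFP. Both groups therefore carry a further Foxp3 allele with a GFP reporter, and the sort takes cells that do not show it. Treg (CD4+hCD2+) and Tconv (CD4+hCD2-) cells came from Foxp3-IRES-hCD2 mice, in which surface human CD2 marks cells that express Foxp3. The same 4 Treg and Tconv libraries stand in both BATF tables. Each of these 4 groups has 2 BATF libraries. IRF4 profiles came from 4 Treg and 4 Tconv libraries. Foxp3 profiles came from pairs of libraries of effector Treg cells (low CCR7 and CD62L), central Treg cells (high CCR7 and CD62L, low CD44), Batf-/- Treg cells (Batf knockout) and wild-type Treg cells. The Batf deletion, per the genotype label, is not limited to Treg cells. The labels do not say whether libraries came from separate or pooled animals, so p-values measure the spread between libraries, which may be technical.

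Foxp3 is the forkhead transcription factor that defines Treg cells, and R397W changes its DNA-binding forkhead domain. BATF is a basic leucine zipper factor of the AP-1 family that pairs with JUN proteins on AP-1 sequences and, together with IRF4, on composite AP-1 and IRF sequences. BATF and IRF4 are known for opening chromatin in activated T cells and for the differentiation of effector Treg cells.

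Promoters of 5 members are shown first as sequence, because the promoters they cover hold both kinds of behaviour found among the 1201 sites. The Cfap20 and Surf6 promoters belong to the strongest members and had high BATF values in all 4 groups. The Celf3, Casp4 and Gm38748 promoters, chosen after their values were seen, were among 6 promoter members lower in R397W than in control Treg cells. Each sequence is a RefSeq window of 300 bases on GRCm38.p6, the mm10 assembly, from 250 bases before to 50 after a gene start. Capitals mark matches to forkhead TGTTTAC (Cfap20, Casp4), ETS CCGGAAG (Surf6), CRE TGACGTCA (Celf3) and AP-1 TGANTCA (Gm38748) on either strand.
Cfap20, chr8:95434820-95435119, minus strand: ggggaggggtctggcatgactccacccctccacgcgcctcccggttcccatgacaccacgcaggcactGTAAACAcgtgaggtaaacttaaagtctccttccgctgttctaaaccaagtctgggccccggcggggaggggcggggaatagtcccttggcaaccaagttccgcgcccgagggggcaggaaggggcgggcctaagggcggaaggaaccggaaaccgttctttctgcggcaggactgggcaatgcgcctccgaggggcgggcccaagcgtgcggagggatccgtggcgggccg
Surf6, chr2:26902838-26903137, minus strand: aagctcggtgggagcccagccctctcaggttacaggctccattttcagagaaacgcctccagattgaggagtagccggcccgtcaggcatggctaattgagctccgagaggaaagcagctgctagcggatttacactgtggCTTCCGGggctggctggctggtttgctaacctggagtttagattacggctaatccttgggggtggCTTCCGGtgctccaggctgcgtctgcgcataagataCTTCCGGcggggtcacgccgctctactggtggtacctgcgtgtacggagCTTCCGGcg
Celf3, chr3:94484108-94484407, plus strand: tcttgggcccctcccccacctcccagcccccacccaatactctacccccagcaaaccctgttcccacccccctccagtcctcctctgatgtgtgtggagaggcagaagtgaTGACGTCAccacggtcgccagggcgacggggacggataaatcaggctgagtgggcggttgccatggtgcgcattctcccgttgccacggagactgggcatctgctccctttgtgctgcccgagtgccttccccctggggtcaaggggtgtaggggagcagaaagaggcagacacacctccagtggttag
Casp4, chr9:5308599-5308898, plus strand: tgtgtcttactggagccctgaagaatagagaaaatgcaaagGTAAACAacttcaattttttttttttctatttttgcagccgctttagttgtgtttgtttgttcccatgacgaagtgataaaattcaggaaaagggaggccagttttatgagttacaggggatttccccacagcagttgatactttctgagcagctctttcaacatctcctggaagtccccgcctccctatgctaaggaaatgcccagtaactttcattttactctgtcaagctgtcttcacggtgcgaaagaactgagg
Gm38748, a long non-coding RNA gene, chr5:146857606-146857905, plus strand: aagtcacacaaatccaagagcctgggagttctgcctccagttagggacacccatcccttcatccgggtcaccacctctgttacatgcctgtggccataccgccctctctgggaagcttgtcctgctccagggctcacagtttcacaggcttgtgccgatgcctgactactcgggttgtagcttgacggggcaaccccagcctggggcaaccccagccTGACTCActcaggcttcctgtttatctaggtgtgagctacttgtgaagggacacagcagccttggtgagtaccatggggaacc
For members away from gene starts no sequence is shown.

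Values are the authors' normalised peak scores, each a read number multiplied by 1 factor fixed per library. Reads in the 9973 peaks ranged from 144319 in control replicate B to 1009580 in Tconv replicate 2, and 1 read was worth 3.46 in control B against 0.440 in Tconv 2. Total sequencing depth is unknown. The mutation cannot be checked in a BATF profile. A BATF peak within Foxp3 itself, not a member, had 42.8 and 83.9 in R397W Treg libraries, 105 and 96.8 in control libraries, 66.1 and 66.3 in Treg libraries, and 2.11 and 0 in Tconv libraries, so the Treg and Tconv labels held. None of 8 B cell marker genes and none of 9 marker genes for CD8 T and NK cells had a member, and 1 of 8 myeloid marker genes, Cebpa, had 1. Among all 9973 peaks these lists held 2, 7 and 3. Only 967 genes had a member, so lists this short would hold few in any case, and these counts do not check cell purity. Near the edge of the rule, the 50 members closest to a first-table peak (5 to 331 bp away) had median group means of 26.6 in R397W, 38.9 in control, 32.4 in Treg and 23.6 in Tconv cells. The 50 other peaks with the shortest overlap (5 to 305 bp shared) had 41.6, 46.0, 46.1 and 41.8 in the same groups. The median member lay 13192 bp from the nearest first-table peak, and 131 lay within 1000 bp of one.

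At the members BATF was lowest in Tconv cells, intermediate in R397W Treg and earlier Treg cells, and highest in control Treg cells. The median value over the 1201 members was 20.5 and 21.5 in the R397W libraries and 38.6 and 41.5 in the control libraries. In the earlier experiment it was 30.4 and 24.3 in the Treg libraries and 9.16 and 8.79 in the Tconv libraries. At the other 8772 peaks of the table, medians of the group means lay close together, at 39.2 in R397W, 41.0 in control, 40.2 in Treg and 38.1 in Tconv cells. The rule removed sites with a peak in a table made from the Treg and Tconv libraries, so differences between the experiments were not tested. Members were not empty in the earlier libraries. The median member held 51 and 37 reads in Treg libraries 1 and 2, against medians of 85 and 77 reads over the first table's own peaks. In the Tconv libraries the median member held 13 and 20 reads, against 68 and 112. In Treg library 1, 22.4% of the first table's peaks had fewer reads than the median member, and in Treg library 2 it was 14.4%. There were 46 members with more reads than the first table's median peak in all 4 of these libraries, 28 of them at a listed gene start.

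**Figure D1:**
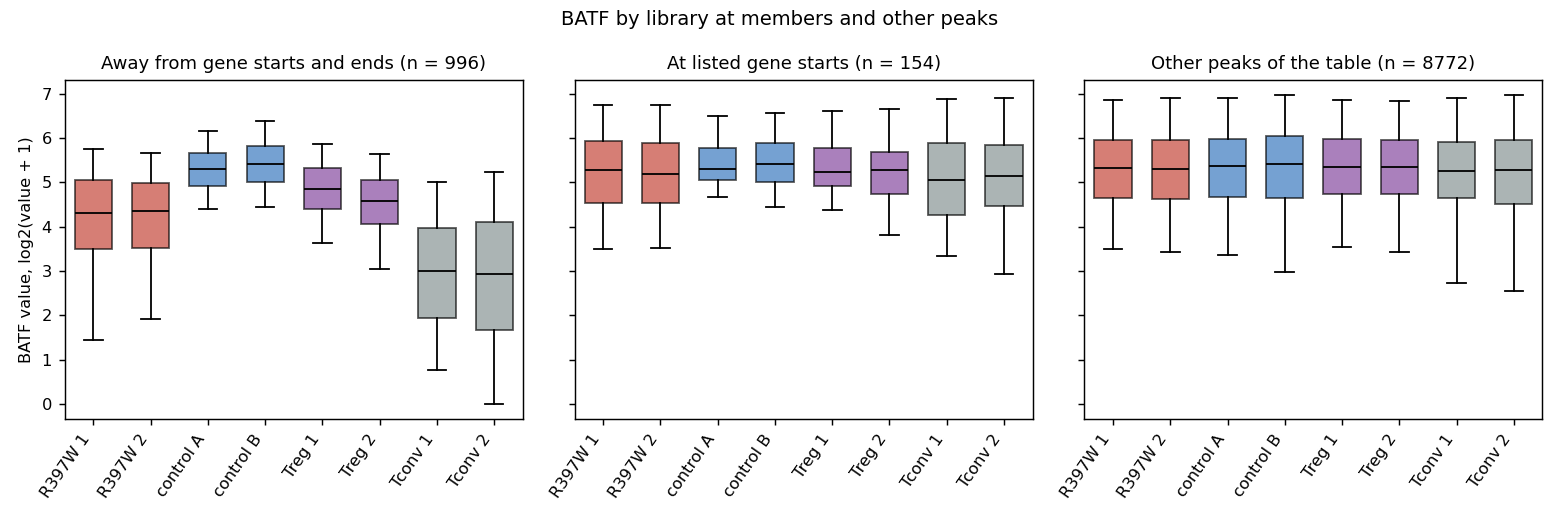
Box plots of BATF values, log2(value + 1), in each of the 8 libraries for 996 members away from listed gene starts and gene ends, 154 members at a listed gene start, and the 8772 other peaks. Boxes are quartiles with the median as a line, and whiskers reach the 5th and 95th percentiles. The 996 members have lower boxes in R397W than in control and the lowest boxes in Tconv cells, and the 154 have medians near those of the other peaks.

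The first tested contrast asked how BATF binding differed between R397W and control Treg cells, which were sorted alike and differ by label in 1 Foxp3 allele. BATF fell at 247 members (20.6%) and was higher at 5 in R397W Treg cells by limma with an adjusted p under 0.05. Over all 9973 peaks 8.04% were lower and 0.612% higher. The median log2 fold change was -0.98 at the members and -0.02 over all peaks. Both R397W libraries lay below both control libraries at 803 members (66.9%, against 28.8% of all peaks) and above them at 100 (8.33%, against 22.7%). Which library each peak was called in is not given in the sources used here, and a site listed through its control libraries had to be high there, so the count describes the members and does not test them as a group. In sorted bulk cells, fewer Treg cells with BATF at a site and less BATF per cell cannot be told apart. Without control replicate B, the library with fewest reads, 25 members were lower, and without control replicate A 106 were. In simulated reads with the same depths, limma recovered 9% of peaks changed 2-fold and 59% of those changed 4-fold.

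Among members above the members' median level, the largest decreases in R397W cells were at Spag9, Commd1, Gins1, Ldlrad4 and Runx2. At Spag9, a scaffold of JNK signalling, the member at chr11:94113781-94114181 inside the gene had 1.71 and 9.70 in the R397W libraries and 50.9 and 104 in the control libraries. BATF there was 13.7-fold lower (log2 fold change -3.78 ± 0.68 SE, limma adjusted p = 0.00493), and the earlier libraries had 65.5 and 30.2 in Treg and 6.34 and 0.439 in Tconv cells. Both R397W values at this site lay far below the control values and near the Tconv values. At Commd1, a regulator of NF-kappa B and copper handling (chr11:22936375-22936775), R397W libraries had 6.84 and 6.24 and control libraries 71.0 and 58.8. The difference was 8.71-fold (adjusted p = 0.00417), with 45.2 and 26.9 in Treg and 7.75 and 7.47 in Tconv cells. The groups did not overlap, and the call held in each of the 13 alternative fits. At Runx2, a Runt-family transcription factor best known from bone (chr17:44713359-44713759), R397W libraries had 8.55 and 11.1, against 81.7 and 58.8 in control libraries (6.55-fold lower, adjusted p = 0.00493). At Gins1, a subunit of the replication helicase complex, the means were 8.94 ± 1.86 in R397W and 80.2 ± 28.4 in control cells (SD, n = 2 each; adjusted p = 0.00338, limma). At Ldlrad4, an inhibitor of TGF-beta signalling on chromosome 18, they were 6.88 ± 0.06 and 59.2 ± 33.6 (SD, n = 2 each; limma adjusted p = 0.0086). The calls at Spag9, Gins1 and Ldlrad4 were lost without control replicate B, that at Spag9 also with no trend of the spread, and that at Runx2 without control replicate A.

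The 5 members higher in R397W cells were at Cfap20, Ncoa5, Zfp281, Phf2 and a site on chromosome 10 with no coding gene within 100000 bp. At Zfp281, a zinc finger repressor 64592 bp from the site at chr1:136694983-136695383, values were 94.0 and 83.2 in R397W libraries and 35.5 and 45.0 in control libraries. This is a log2 fold change of 1.13 ± 0.31 (SE, limma adjusted p = 0.0329), and the Treg and Tconv libraries had 53.6, 45.3, 38.7 and 62.0. R397W was the highest of the 4 groups there. At Phf2, a histone demethylase gene (chr13:48870426-48870826), values were 34.2 and 28.4 in R397W libraries and 3.08 and 6.92 in control libraries (adjusted p = 0.035). The control values rest on 2 reads in each library. At the chromosome 10 site (chr10:19127360-19127760), R397W libraries had 63.3 and 24.3 and control libraries 12.3 and 0 (adjusted p = 0.0381). Cfap20, a ciliary protein, and Ncoa5, a nuclear receptor coactivator, are promoter sites described below. All 5 calls were lost without control replicate B, without R397W replicate 1 and without R397W replicate 2, and those at Zfp281 and Phf2 also without control replicate A.

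**Figure D2:**
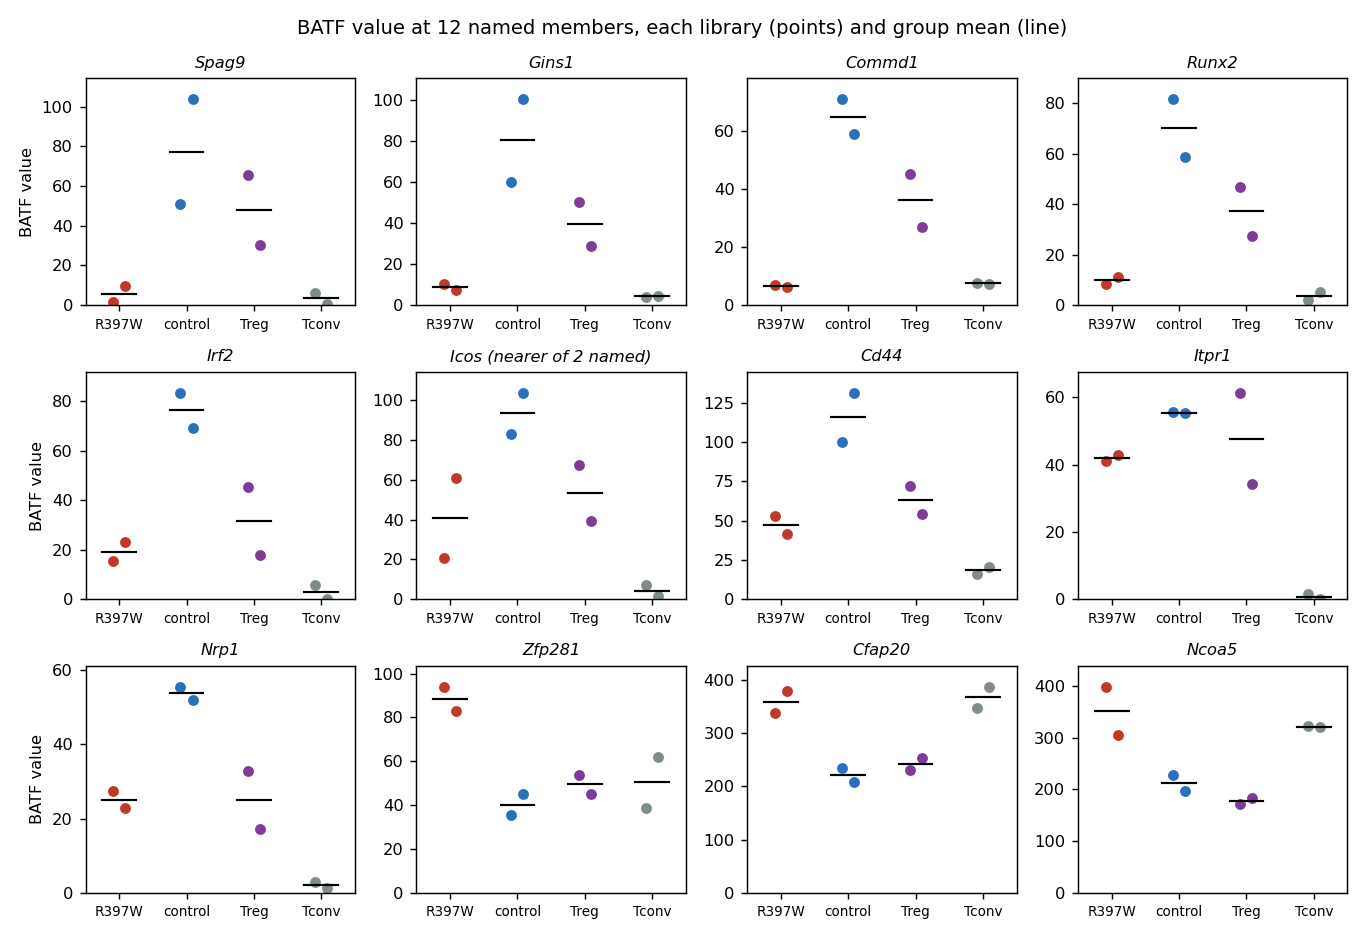
BATF values (linear scale, reads times the library's factor) at 12 named members in R397W Treg, control Treg, Treg and Tconv cells, with 1 point per library and a line at the mean of 2. At Spag9, Gins1, Commd1 and Runx2 the R397W and Tconv points lie low together. At Itpr1 the R397W points (41.0 and 43.0) lie well above the Tconv points (1.41 and 0), and at Zfp281, Cfap20 and Ncoa5 the R397W points lie above the control points.

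The second contrast asked where BATF differed between Treg and Tconv cells in the earlier libraries. BATF was higher in Treg cells at 639 members (53.2%) and lower at 15 (1.25%), against 22.1% and 9.66% of all 9973 peaks. The median log2 fold change was 1.45 at the members and -0.05 over all peaks. Both Treg libraries lay above both Tconv libraries at 862 members (71.8%, against 32.8% of all peaks). The first table's peaks come from these same libraries, so the direction of these counts is not independent of the rule. Without Treg replicate 1, limma called 0 members and 0 peaks of the whole table, though 524 members still had an unadjusted p under 0.05, and without Treg replicate 2 it called 178 higher. With all libraries, edgeR on recovered reads called 643 higher and DESeq2 542, while limma called 372 after quantile normalisation. A filter on low values left 428 of the 1201 members to test. Of these limma called 137 higher, and their median log2 fold change was 0.45.

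The largest differences above the members' median level were at Map4k4, Gtdc1, Rad51b and Itpr1. At Map4k4, a kinase of stress signalling 27557 bp from the site at chr1:40053867-40054267, Treg libraries had 49.4 and 32.8 and both Tconv libraries had 0. Taking 3 reads per library as the floor, BATF was at least 24.0-fold higher in Treg cells (limma adjusted p = 1.79e-05). At Gtdc1 (chr2:44873677-44874077), Treg libraries had 44.1 and 26.9 and both Tconv libraries 0, at least 20.7-fold higher by the same floor (adjusted p = 3.29e-05). Both sites were thus occupied in Treg libraries and empty of reads in Tconv libraries. At Rad51b, a gene of recombination repair, Treg libraries had 45.8 and 46.6 and Tconv libraries 1.41 and 0 (adjusted p = 2.4e-05). At Itpr1, a calcium channel that releases internal stores, Treg libraries had 61.3 and 34.1 and Tconv libraries 1.41 and 0 (adjusted p = 3.1e-05). The R397W libraries held reads at these sites: 20.5 and 22.2 at Map4k4, 41.0 and 9.70 at Gtdc1, 37.6 and 13.9 at Rad51b, and 41.0 and 43.0 at Itpr1. Of these 4, limma called Map4k4 lower in R397W than in control cells (2.63-fold, adjusted p = 0.0408), and 8 of the alternative fits did not.

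Lower in Treg cells were members at Als2cl, Slc28a2, Ncoa5 and 1700056E22Rik. At Als2cl (chr9:110880097-110880497), Treg libraries had 35.7 and 36.8 and Tconv libraries 100 and 103 (log2 fold change -1.46 ± 0.22 SE, limma adjusted p = 0.000105). The R397W libraries had 66.7 and 61.7 and the control libraries 33.9 and 34.6 there, a difference that did not pass the test (adjusted p = 0.131). At Slc28a2, a nucleoside transporter 8116 bp from the site at chr2:122469268-122469668, Treg libraries had 14.3 and 30.2 and Tconv libraries 50.0 and 76.0 (adjusted p = 0.00302). At 1700056E22Rik, 8044 bp away, Treg libraries had 17.3 and 22.3 and Tconv libraries 32.4 and 49.7 (limma adjusted p = 0.0377).

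The contrasts have no library in common, so their calls could be set side by side. Of the 247 members lower in R397W, 226 (91.5%) were higher in Treg than in Tconv cells, 21 were not called and 0 were lower by limma. Among the other 8772 peaks, 555 were lower in R397W and 94.6% of those were higher in Treg cells. Those 226 were 35.4% of the 639 members higher in Treg cells. At the 247, the medians were 10.3 and 9.70 in the R397W libraries, 46.3 and 55.3 in the control libraries, 32.7 and 21.7 in the Treg libraries and 3.52 and 3.08 in the Tconv libraries. At the 639, medians of the group means were 17.1 in R397W, 44.7 in control, 28.0 in Treg and 4.09 in Tconv cells. The R397W mean was below the control mean at 617 of these 639 (96.6%) and above the Tconv mean at 609 (95.3%), against 94.1% and 96.0% of the 1567 other peaks higher in Treg cells. Over all members, 843 of 1201 (70.2%) had group means in the order control, R397W, Tconv from high to low, against 24.5% of the other peaks. This order is not independent of the rule, because the first table was made from the Treg and Tconv libraries. Sites listed through their control libraries also had to be high there. Setting R397W beside Tconv means, here and at the 639, crosses the experiments and was not tested. Neither contrast called 523 members.

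**Figure D3:**
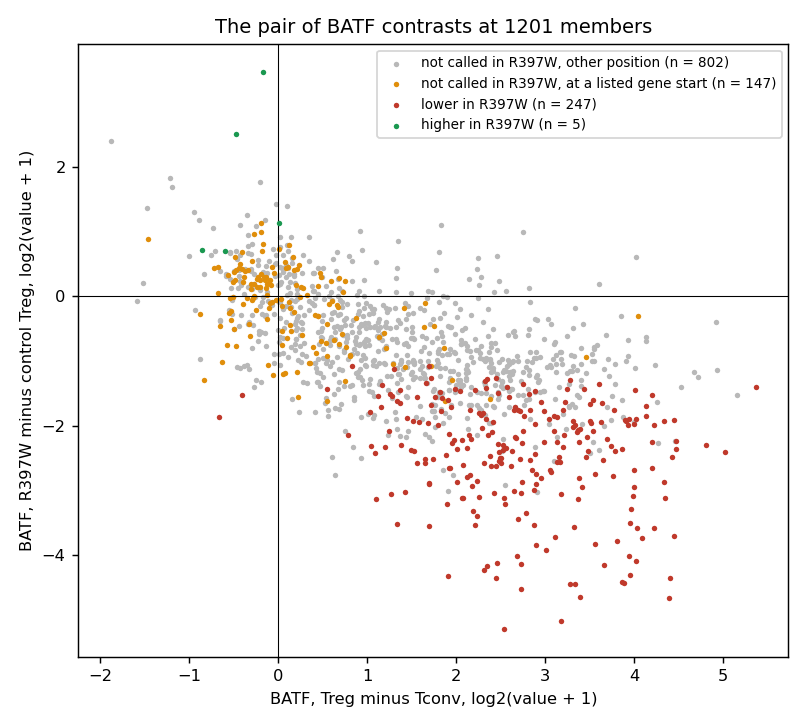
Each point is 1 of the 1201 members, with the log2 difference of BATF between Treg and Tconv cells across and between R397W and control Treg cells up, both on log2(value + 1). The 247 members lower in R397W lie mostly at the lower right, where Treg exceeds Tconv. Members at listed gene starts have their own colour only if not called in R397W, and these lie mostly around 0 on both axes. The 4 lower and 3 higher at listed gene starts are drawn with the called members.

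Position divided the members. The gene starts listed in the reference table cover 81.8% of coding genes outside chromosome 18. A listed start lay within 1000 bp of the centre of 154 members (12.8%), against 34.8% of the other 8772 peaks, and 996 members (82.9%, against 55.4%) lay away from both listed starts and ends of coding genes. This division was chosen after the values were seen. At the 154 the medians of group means were 36.3 in R397W, 39.3 in control, 36.7 in Treg and 34.8 in Tconv cells, with 4 lower (2.60%) and 3 higher in R397W and 16 higher in Treg cells (10.4%). Of the 3053 other peaks at a listed start, 0.426% were lower in R397W and 2.39% higher in Treg cells. At the 996 they were 19.9, 40.2, 25.9 and 6.80 in the same groups, with 238 lower in R397W (23.9%) and 609 higher in Treg cells (61.1%). Of these, 574 lay inside a gene body and 422 between genes, and 24.9% and 22.5% were lower in R397W. The other 4860 peaks with the same position had 10.8% lower in R397W and 29.6% higher in Treg cells. The 2 sets were not tested against each other.

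Of the 8 strongest members, 5 lay within 1000 bp of a listed gene start, and all had high values in every group. The Cfap20 site (chr8:95434781-95435181), whose sequence is printed above, had 339 and 378 in R397W libraries, 234 and 208 in control, 231 and 253 in Treg, and 348 and 387 in Tconv libraries. It was 1.62-fold higher in R397W than in control cells (limma adjusted p = 0.0413) and lower in Treg than Tconv cells (log2 fold change -0.60 ± 0.16, adjusted p = 0.00779). Ncoa5 (chr2:165034729-165035129) had 398 and 305 in R397W, 228 and 197 in control, 171 and 183 in Treg, and 322 and 320 in Tconv libraries. Its log2 fold changes were 0.71 ± 0.21 for R397W against control (adjusted p = 0.0462) and -0.85 ± 0.16 for Treg against Tconv cells (adjusted p = 0.000595). At both promoters the R397W and Tconv libraries were high and the control and Treg libraries lower. The other 6 of the 8 strongest were Rad51ap1, Rai1, Surf6, Cenpj, Wbp1l and B3galnt2, with group means of 131 to 190 in R397W and 117 to 152 in control cells, and none was called in R397W. Rai1, a chromatin-associated regulator, had 188 and 192 in R397W and 140 and 96.8 in control libraries (adjusted p = 0.0877). Wdr73 had 159 and 147 in R397W and 114 and 79.5 in control libraries (adjusted p = 0.118). Rad51ap1, Surf6, a nucleolar protein, and Cenpj, a centriole protein, had adjusted p-values of 0.569, 0.6 and 0.333. In Treg against Tconv cells Rai1, Cenpj and B3galnt2 were lower (adjusted p = 0.0114, 0.00352 and 0.0295). Cenpj had 126 and 145 in Treg and 224 and 222 in Tconv libraries.

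Of 135 members on 162 promoter windows, 6 (4.44%) were lower in R397W and 3 higher, against 0.349% and 0.594% of the 2863 other peaks on such windows. At Celf3, an RNA-binding protein gene, R397W libraries had 15.4 and 38.1 and control libraries 63.2 and 72.6 (limma adjusted p = 0.0456), and Treg and Tconv cells did not separate by the test (adjusted p = 0.448). At Casp4, an inflammatory caspase, BATF averaged 16.7 ± 1.9 in R397W and 65.1 ± 23.6 in control cells (SD, n = 2 each; limma adjusted p = 0.0149), with 33.3 and 24.3 in Treg and 2.82 and 3.96 in Tconv libraries. The Casp4 site overlapped both a Foxp3 and an IRF4 peak. At the Gm38748 window the R397W libraries had 3.42 and 6.24, the control libraries 49.4 and 48.4 (log2 fold change -3.14 ± 0.62 SE, adjusted p = 0.00726), the Treg libraries 48.2 and 44.0 and the Tconv libraries 2.11 and 5.71. Its AP-1 match, TGACTCA, starts 33 bases before the gene start. The others were on windows of 1700066B17Rik, LOC115489947, which holds the AP-1 match TGAGTCA, and Scin. The call at Celf3 was lost in 9 of the 13 alternative fits, among them edgeR, DESeq2 and the fits without R397W replicate 1 or either control library. The call at Casp4 was lost in 5, among them DESeq2 and the same 3 fits without 1 library, and that at Gm38748 in 1, without control replicate B.

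Member promoters and other promoters on BATF peaks held AP-1 matches in like shares and ETS and E-box matches in unlike shares, described here without a test. AP-1 TGANTCA was in 4.32% of 162 member windows (those overlapping a member), 4.37% of 3526 windows on other peaks and 7.81% of all 32817 windows searched. CRE TGACGTCA was in 3.70%, 3.55% and 1.79% of the same sets, and forkhead TGTTTAC in 3.70%, 2.58% and 3.65%. ETS CCGGAAG was in 13.0% of member windows, 23.0% of windows on other peaks and 8.86% of all. The E-box CACGTG was in 4.32%, 12.1% and 7.15%, the GC box GGGCGG in 61.7%, 68.5% and 35.6%, and CCAAT in 27.2%, 36.4% and 37.4%. An AP-1 match with GAAA or TTTC at most 8 bases away, a short form of the BATF-IRF composite, was in 0.617%, 0.822% and 1.62%, and a pair of GAAA with 2 or 3 bases between them in 7.41%, 5.13% and 5.98%. Matches were counted on both strands, the composite overlaps AP-1 by its definition, and a CACGTG may overlap a forkhead match. Member windows had a median GC content of 60.0%, against 62.0% on other peaks and 52.7% over all windows.

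Gene lists were chosen with earlier results known and are described by counts, with each member given to the nearest coding gene within 100000 bp. A gene could stand in more than 1 list, as Irf4, Bach2 and Gata3 did. Over all 1201 members 53.2% were higher in Treg cells and 20.6% lower in R397W, against 22.1% and 8.04% of all peaks. The counts of every list are to be read beside these shares. The 967 genes with a member included 229 with no first-table peak. Of 16 Treg core genes, 4 had 5 members, all 5 higher in Treg than Tconv cells and 0 called in R397W by limma, with a median log2 fold change of -1.31 for R397W against control. At Nrp1, a surface receptor of thymus-derived Treg cells (chr8:128504148-128504548), R397W libraries had 27.4 and 22.9, control 55.5 and 51.9, Treg 32.7 and 17.1, and Tconv 2.82 and 1.32. Treg exceeded Tconv by a log2 fold change of 3.05 ± 0.62 (SE, limma adjusted p = 0.00112), and R397W against control did not pass the test (adjusted p = 0.109). Nt5e, the ectoenzyme CD73, had 2 members, the stronger with 49.6 and 45.7 in R397W and 61.7 and 93.4 in control libraries. The others were at Ikzf2, which encodes Helios, and Il2rb, the IL-2 receptor beta chain.

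Of 26 effector Treg genes, 9 had 14 members. Of these 9 were higher in Treg cells and 4 were lower in R397W, against 53.2% and 20.6% of all members. The median log2 fold change for R397W was -1.14. The 4 were 2 of the 3 Icos members, 1 at Rora and 1 at Bhlhe40. At the Icos site chr1:61026691-61027091, 26369 bp from this costimulatory receptor gene, values were 20.5 and 61.0 in R397W, 83.3 and 104 in control, 67.3 and 39.4 in Treg, and 7.04 and 1.32 in Tconv libraries. BATF was 2.57-fold lower in R397W (limma adjusted p = 0.0478) and 12.2-fold higher in Treg than Tconv cells (adjusted p = 0.000159). At the farther Icos site, chr1:61046061-61046461, values were 39.3 and 68.6 in R397W and 126 and 96.8 in control libraries (2.11-fold lower, adjusted p = 0.0425). Treg and Tconv cells did not separate by the test there (adjusted p = 0.0868). Both R397W calls at Icos are near the threshold and were lost in 9 and 7 of 13 alternative fits, among them the fits that left out 1 control library. At Bhlhe40, a repressor of IL-10, the means were 4.50 in R397W and 35.0 in control cells (adjusted p = 0.0299). At Rora, an orphan nuclear receptor, the called member had 8.62 in R397W and 50.6 in control cells (adjusted p = 0.0135). A member 861 bp from Il10, the anti-inflammatory cytokine gene, had means of 16.4 in R397W, 46.6 in control, 35.8 in Treg and 13.2 in Tconv cells. It was higher in Treg cells (limma adjusted p = 0.0431), where the 2 libraries had 51.2 and 20.35, and R397W against control gave an adjusted p of 0.0588. The Treg call at Il10 was lost with a pseudocount of 0.5, the filter on low values, quantile normalisation, no trend and all 8 libraries in 1 fit. It was also lost without Treg replicate 1, Treg replicate 2 or Tconv replicate 2. The 2 Tigit members were also higher in Treg cells (adjusted p = 0.000159 and 0.0115) and not called in R397W (adjusted p = 0.0675 and 0.0681).

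Of 18 naive or central T cell genes, 8 had 18 members. Of these 6 were higher in Treg cells and 2 lower in R397W, at Il6ra and Bach2, against 53.2% and 20.6% of all members. The median log2 fold change for R397W was -0.39. The strongest were at Foxp1 and Bcl2. The Foxp1 site at chr6:99057173-99057573 had 59.8 and 64.4 in R397W, 75.6 and 76.1 in control, 82.7 and 49.9 in Treg, and 23.9 and 21.5 in Tconv libraries (Treg against Tconv 2.75-fold, limma adjusted p = 0.00135). At Bcl2, a survival factor, R397W libraries had 29.1 and 43.7 and control libraries 58.6 and 114 (adjusted p = 0.0598), and the mean was 57.9 in Treg against 8.66 in Tconv cells (adjusted p = 0.000387). Of 19 genes for AP-1 or IRF family factors, 5 had 8 members, with 4 higher in Treg and 2 lower in R397W, at Irf2 and Bach2. Irf2, an interferon regulatory factor 4851 bp from its site (chr8:46734494-46734894), had 15.4 and 22.9 in R397W and 83.3 and 69.2 in control libraries (3.89-fold lower, adjusted p = 0.00772). A member inside Irf4 had 42.7 and 48.5 in R397W and 49.4 and 48.4 in control libraries (adjusted p = 0.904). T helper genes had 7 members, with 3 higher in Treg and 2 lower in R397W, among them 1 at Stat4 (6.68 in R397W against 41.4 in control cells). A stronger Stat4 member and 1 at Stat3 were not called (adjusted p = 0.89 and 0.205). T cell receptor signalling genes had 8 members, with 4 higher in Treg and 1 lower in R397W, at the kinase gene Zap70 (22.1 in R397W against 60.6 in control cells, adjusted p = 0.0457). Members at Cblb and Egr2 had adjusted p-values of 0.853 and 0.633 for R397W. The single members at Hspa1a and Eef1a1, a heat shock and a housekeeping gene, were called in neither contrast, and that at Cebpa was higher in Treg cells (adjusted p = 0.00406). Without control replicate B, 25 of the 28 R397W calls at members named here were lost.

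Several genes held clusters of members, chosen here by that number. Foxp1 and Runx2 held 6 each, Etv6 and Itpr1 5 each, and Ankrd55, Bach2, Btg1 and Rgs3 4 each. Members of 1 gene are not replicates. Over all members 53.2% were higher in Treg cells and 20.6% lower in R397W. At Runx2, 5 of 6 members were higher in Treg cells and 1 was lower in R397W, with median group means of 16.4 in R397W, 34.2 in control, 23.2 in Treg and 4.80 in Tconv cells. At Itpr1, 4 of 5 were higher in Treg cells and 3 lower in R397W (medians 14.8, 55.4, 25.3 and 2.46 in the same groups). At Etv6, an ETS-family repressor, 4 of 5 were higher in Treg cells, all 5 lay on IRF4 peaks, and 0 were called in R397W by limma. At Foxp1, 2 of 6 were higher in Treg cells and 0 were called in R397W, although log2 fold changes there ran from -1.20 to 1.08. The gene already held 25 first-table peaks, and Runx2 held 3.

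The third question was whether these sites carry the partner factors. Of the 1201 members, 273 (22.7%) overlapped 1 of the 6396 Foxp3 peaks, against 22.1% of the other 8772 BATF peaks, and 488 (40.6%) overlapped 1 of the 9134 IRF4 peaks, against 40.7%. Both factors were at 135 members (11.2%, against 15.1% of the other peaks) and neither at 575 (47.9%, against 52.3%). Foxp3 alone was at 138 (11.5%, against 7% of the other peaks) and IRF4 alone at 353 (29.4%, against 25.6%). Within each position the shares were lower at the members or near those of the other peaks: for Foxp3 5.19% against 7.99% at a listed gene start, 27.2% against 31.4% inside a gene body and 24.6% against 34.3% between genes. For IRF4 they were 20.8% against 31.3%, 45.1% against 45.3% and 43.4% against 52.3% at the same positions. None of these differences was tested. Members lower in R397W overlapped Foxp3 peaks in 21.9% (54 of 247) and IRF4 peaks in 47.8% (118). Members with both factors had the highest median control mean (50.6, against 37.2 for members with neither), and 21.5% of them were lower in R397W, against 25.2% with IRF4 alone, 18.1% with Foxp3 alone and 18.1% with neither. Among the other peaks 17.8% with both factors were lower in R397W, 9.35% with IRF4 alone, 5.54% with Foxp3 alone and 1.64% with neither. These shares were not tested against each other.

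Many IRF4 peaks on members were higher in Treg than in Tconv cells. Of 487 IRF4 peaks on members, 233 (47.8%) were higher and 7 (1.44%) lower in Treg cells by limma, against 15.8% and 8.39% of all IRF4 peaks. The median log2 fold change was 1.09 on members and -0.05 over all IRF4 peaks. The median of the group means was 22.8 in Treg and 11.3 in Tconv cells on members, and 21.1 and 20.3 on the other BATF peaks. At the 118 members lower in R397W with an IRF4 peak, IRF4 was higher in Treg cells at 95 (80.5%) and lower at 0. Of the 367 members with an IRF4 peak not called in R397W, 37.9% had IRF4 higher and 1.91% lower. No such share is given for other BATF peaks lower in R397W, so this does not set the members apart. Split by the Treg against Tconv call for BATF instead, IRF4 was higher at 69.3% of 313 members higher in Treg cells. At the 175 not higher there, it was higher at 9.71% and lower at 4%. These splits overlap, since 226 of the 247 members lower in R397W were higher in Treg cells. At Spag9 the 4 Treg libraries had 26.7, 17.4, 69.5 and 57.1 and the 4 Tconv libraries 0, 1.39, 1.80 and 2.29 (log2 fold change 4.13 ± 0.55 SE, limma adjusted p = 1.01e-05). The lowest Treg library was above the highest Tconv library. At Runx2 the Treg libraries had 18.4 to 30.1 and the Tconv libraries 0 to 4.51 (adjusted p = 0.000142). At Gins1 the Treg libraries had 21.3 to 29.5 and the Tconv libraries 2.29 to 5.57 (adjusted p = 0.00026). At these sites no Treg value reached down to a Tconv value. At Slc28a2, where BATF was lower in Treg cells, so was IRF4, with 3.21 to 11.1 in the 4 Treg libraries and 29.2 to 32.3 in the 4 Tconv libraries (adjusted p = 0.000722). At the Cfap20, Ncoa5 and Wbp1l members IRF4 did not separate the groups by the test (adjusted p = 0.802, 0.133 and 0.708).

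Among Foxp3 peaks on members, more were higher in effector than in central Treg cells than were lower. Of 272 Foxp3 peaks on members, 113 (41.5%) were higher and 19 (6.99%) lower in effector Treg cells by limma, against 15.0% and 10.8% of all Foxp3 peaks. Of the 1940 Foxp3 peaks on other BATF peaks, 19.6% were higher and 14.5% lower. The median log2 fold change was 0.61 on members and -0.01 over all. Of the 54 members lower in R397W with a Foxp3 peak, 45 (83.3%) had Foxp3 higher in effector cells and 0 lower, with a median log2 fold change of 1.66. Of the 217 members with a Foxp3 peak not called in R397W, 31.3% had Foxp3 higher and 8.76% lower. Other BATF peaks lower in R397W were not counted this way. Split by the BATF call in Treg against Tconv cells, Foxp3 was higher in effector cells at 64.4% of 149 members higher in Treg. At the 124 not higher there, it was higher at 13.7% and lower at 14.5%. This split overlaps that by R397W. When Batf knockout was set against wild type, Foxp3 was lower at 28 of the 272 (10.3%) and higher at 0. Over all Foxp3 peaks the shares were 3.91% and 0.547%. Of the 1940 Foxp3 peaks on other BATF peaks, 7.37% were lower and 0.567% higher, closer to the members. At an unadjusted limma p under 0.05, 73 of the 272 were lower (26.8%) and 11 higher (4.04%), against 10.4% and 6.82% of all Foxp3 peaks. The call of 28 changed to 4 without wild-type replicate 1, to 5 without wild-type replicate 2, to 45 without knockout replicate 1 and to 15 without knockout replicate 2. No count tool was run on this contrast, because 1 wild-type library gave no certain read unit. Of the 28 peaks, 23 were higher in effector cells. Of the 28 members on them, 17 overlapped an IRF4 peak, 24 were higher in Treg cells and 12 were lower in R397W. Among all 273 members on a Foxp3 peak, 135 overlapped an IRF4 peak, 54.6% were higher in Treg cells and 19.8% lower in R397W. No such counts are given for knockout-lower Foxp3 peaks off the members, so these do not set the members apart.

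**Figure D4:**
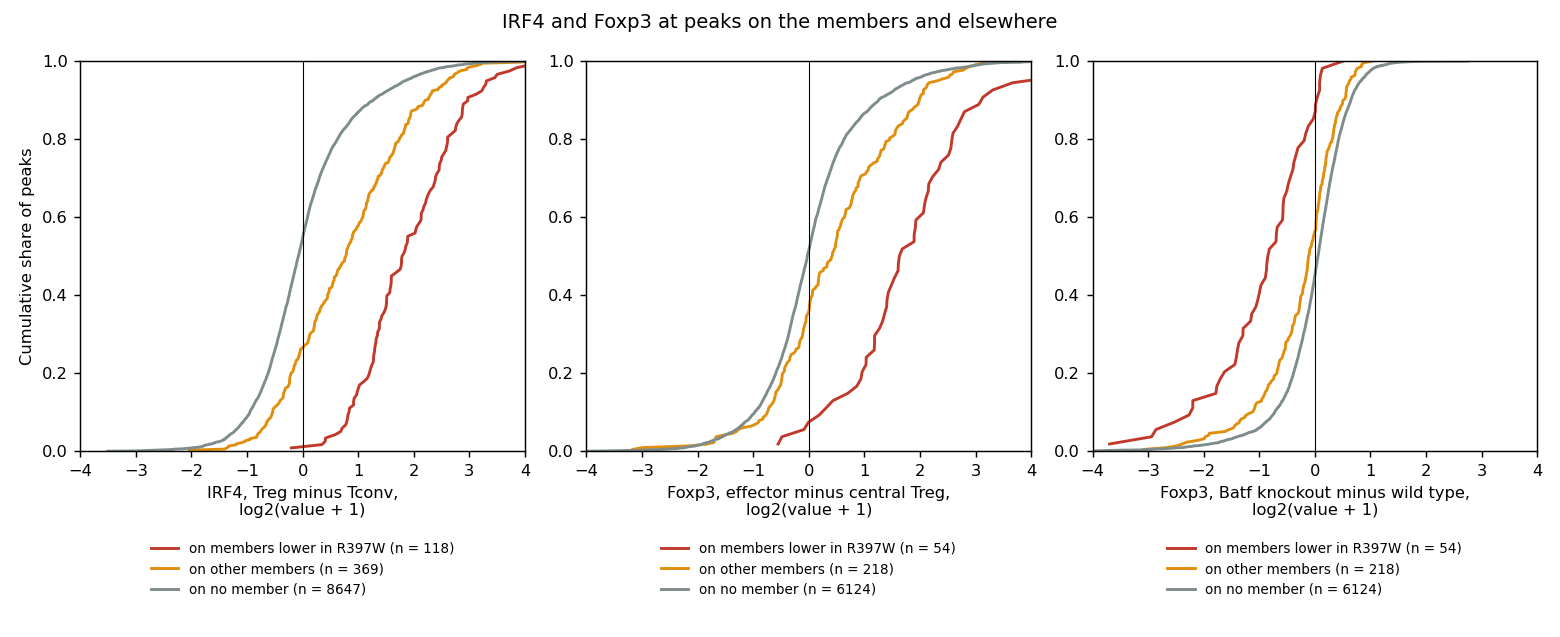
Cumulative shares of IRF4 and Foxp3 peaks by log2 fold change for peaks on members lower in R397W, on other members and on no member. For IRF4 in Treg minus Tconv cells the medians are 1.80, 0.78 and -0.08 in that order. For Foxp3 in effector minus central Treg they are 1.66, 0.42 and -0.03, and for Foxp3 in the knockout minus wild type they are -0.83, -0.11 and 0.06.

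The Icos and Cd44 loci show the 3 factors at single sites. At the Icos site 26369 bp from the gene, Foxp3 had 29.1 and 54.8 in effector Treg libraries and 4.00 and 5.93 in central Treg libraries (6.97-fold higher, limma adjusted p = 0.000243). It had 2.03 and 5.15 in Batf knockout and 19.2 and 18.4 in wild-type Treg libraries (4.58-fold lower, adjusted p = 0.0116, lost when either wild-type library was left out). IRF4 ranged over 44.4 to 58.8 in Treg libraries and 9.93 to 18.8 in Tconv libraries (adjusted p = 0.000105). At the farther Icos site Foxp3 in the knockout did not pass the test (adjusted p = 0.0843), and IRF4 did not separate Treg from Tconv cells (adjusted p = 0.708). At Cd44, an adhesion receptor high on activated T cells, the member at chr2:102956988-102957388 had BATF values of 53.0 and 41.6 in R397W, 100 and 131 in control, 72.0 and 54.5 in Treg, and 16.2 and 20.7 in Tconv libraries. BATF was 2.41-fold lower in R397W (limma adjusted p = 0.0136) and 3.30-fold higher in Treg than Tconv cells (adjusted p = 0.000411). The R397W call was lost without control replicate B or R397W replicate 2, with no trend of the spread and by DESeq2. Foxp3 there had 46.9 and 39.2 in effector and 7.99 and 7.41 in central Treg libraries (5.04-fold, adjusted p = 0.000213), and low surface CD44 was part of the central Treg sort. IRF4 values were 28.5 to 70.7 in Treg libraries and 11.4 to 32.3 in Tconv libraries, so the groups overlapped in range (adjusted p = 0.00188). Other members with both factors behaved differently. At Wbp1l Foxp3 had 231 and 229 in knockout and 205 and 264 in wild-type libraries (adjusted p = 0.984), and BATF had 157 and 105 in R397W and 122 and 149 in control libraries (adjusted p = 0.912). At Cdc42se2 Foxp3 had 128 and 123 in effector and 153 and 187 in central Treg libraries (limma adjusted p = 0.222). At Gm42226 Foxp3 was 2.74-fold higher in effector cells (limma adjusted p = 0.000273), while BATF in R397W against control gave an adjusted p of 0.0562.

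The largest Foxp3 decreases in the knockout on members were at Mmp10, Cetn4 and Lamc1, named after their values were seen. At Mmp10, a matrix metalloproteinase (chr9:7501134-7501534), Foxp3 had 1.02 and 0 in knockout and 17.2 and 17.5 in wild-type libraries (limma adjusted p = 0.00382), and 34.2 and 37.5 in effector and 0 and 0 in central Treg libraries. BATF at that member was lower in R397W by a log2 fold change of -2.23 (adjusted p = 0.0278). At Cetn4 (chr3:37292654-37293054) Foxp3 had 3.05 and 2.57 in knockout and 28.3 and 34.2 in wild-type libraries (adjusted p = 0.000574), while BATF in R397W gave an adjusted p of 0.481. At Lamc1, a laminin chain gene (chr1:153346915-153347315), Foxp3 had 8.13 and 1.29 in knockout and 37.4 and 30.9 in wild-type libraries (adjusted p = 0.00324). The Mmp10 and Lamc1 calls were lost when either wild-type library was left out.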

How the data were processed

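The 4 tables that the authors deposited give a normalised signal for each peak and library, over 1 peak list per table. The submitters' processing notes name build mm10 and the tools DiffBind 3.12.0, edgeR 3.38.4, MACS2 2.2.7.1 and Bowtie2 2.4.1, whose settings are not given in the sources used here. In each library the deposited signal came in whole multiples of 1 step (tolerance 0.01), so reads were recovered, except that the step of the first wild-type Foxp3 library, 1.01, was too near 1 to be certain. Reads in peaks ranged from 1377509 to 2280493 (first BATF table), 144319 to 1009580 (second), 164740 to 393310 (Foxp3) and 162580 to 336969 (IRF4) per library. The 10 input samples of the 34 were not used.

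Members were second-table BATF peaks that overlap no first-table peak by 1 bp. limma 3.58.1 (R 4.3.3) was run on log2(value + 1) over all peaks of a table, with a trend of the spread, two-sided, with Benjamini-Hochberg adjustment and a threshold of 0.05. Folds are on the value + 1 scale, which understates changes at low values. R397W and Treg-Tconv contrasts were fitted on their own 4 libraries, both Foxp3 contrasts in 1 fit of 8, and IRF4 on 8. Alternatives were pseudocounts of 0.5 and 5, a filter at the 25th percentile, quantile normalisation, no trend, each library left out, other library sets, a replicate block, edgeR 4.0.16 and DESeq2 1.42.0 on recovered reads, a member distance of 1000 bp and an overlap of 50%. The fits were tested on simulated data. Scaling within peaks hides a change common to most peaks.

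The members, gene lists and named members were chosen with earlier results of these data known. Named members were the 8 strongest, the 5 largest changes per direction in R397W and the 4 in Treg against Tconv cells. These changes were calls above the members' median level, except that all 5 calls higher in R397W are named, whatever their level. Added to them were up to 2 per gene list, the 6 strongest on both Foxp3 and IRF4 peaks and the 6 strongest on promoter windows. Further members of the gene lists are also described, among them members with a call. The control columns carry other numbers than their titles and are called replicates A and B. Peaks took the nearest coding gene body within 100000 bp (RefSeq, GRCm38.p6). Peak coordinates are printed as the tables have them, and their counting base (0 or 1) is open to 1 bp. Promoter windows came from RefSeq on the same assembly. One named gene's result is not reported here.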

Additional observations from a re-analysis of the deposited data

Results flagged for a closer look

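Among the IRF4 peaks on named members, 62 groups of 4 libraries were looked at, and in 2 of them 1 library stood far from the other 3. Chance gives about 1 such group in 20. At the Bcl2 member, IRF4 in 1 Treg library was 96.8, while the other 3 Treg libraries had 43.8, 48.9 and 51.1. At the Rad51b member, IRF4 in 1 Treg library was 12.7, while the other 3 had 22.1, 23.0 and 23.5.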

How the results depend on the processing

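Members higher and lower in R397W, 5 and 247, were 3 with a pseudocount of 0.5 (higher), 3 and 137 after quantile normalisation, 0 and 83 without the trend of the spread, 10 with all 8 libraries in 1 fit (higher), and 1 and 102 by DESeq2, while edgeR gave 6 and 270. Leaving out 1 library gave 0 to 9 higher and 25 to 212 lower. For Treg against Tconv cells, 639 and 15, the filter on low values gave 137 higher of the 428 members it left. Quantile normalisation gave 372 and 26, no trend 7 lower and 8 libraries 8 lower, and leaving out 1 library 0 to 637 higher and 0 to 19 lower. Quantile normalisation moved the median of all peaks by 0.15 (R397W) and -0.11 (Treg) on the log2 scale, and members less all peaks were then -0.91 and 0.90. For Foxp3 in effector against central Treg cells, 113 and 19, quantile normalisation gave 29 lower, DESeq2 75 and 11, and leaving out 1 library 73 to 90 higher and 11 to 15 lower. For Foxp3 in the Batf knockout, 0 and 28, a pseudocount of 5, the fit of 4 libraries and the replicate block each gave 1 higher, the filter 11 lower and quantile normalisation 16, and leaving out 1 library 0 to 1 higher and 4 to 45 lower. With the filter 122 of the 299 IRF4 peaks left on members were called higher in Treg cells, against 233 of 487 without it. The causes were not tested, except that the filter and left-out libraries leave fewer peaks or samples. Among members above the median level, 28.3% lay on Foxp3 and 50.2% on IRF4 peaks. No named peak called in the main fit changed direction in these alternatives. Among named peaks not called there, 15 changed sign in at least 1 alternative for R397W and 21 for Treg against Tconv cells. The same held for 10 IRF4 peaks, and for 3 Foxp3 peaks in the effector and 6 in the knockout contrast.

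Same-numbered libraries correlated at 0.03 to 0.14, so the numbers were not taken as pairs. With the replicate block, 692 members were higher and 19 lower in Treg cells, 113 and 19 Foxp3 peaks in effector cells, 27 Foxp3 peaks lower in the knockout, and 241 and 9 IRF4 peaks higher and lower in Treg cells. For R397W, a replicate block chosen after seeing the data, by numbers in the column names that differ from those in the control titles, gave 10 members higher and 333 lower. Count tests were not run for the knockout contrast, and the effector contrast's left out wild-type library 1, whose read unit is uncertain. In simulated reads limma recovered 9% of 2-fold changes for R397W and 22% to 34% in the other contrasts, so most changes of that size would be missed.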
